A study of Sus scrofa with 11 samples.

Results

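The genes of oxidative phosphorylation were followed in RNA sequencing of skin wounds from a diabetic and a non-diabetic minipig, and 92 of the 30376 genes listed belong to them. They were chosen by symbol. The nuclear members are the genes whose symbols open with NDUFA, NDUFB, NDUFC, NDUFS, NDUFV, UQCR, ATP5 or COX followed by a digit from 4 to 8, together with SDHA, SDHB, SDHC, SDHD and CYC1. The 13 protein genes of the mitochondrial genome were added. By complex, 44 members belong to complex I and 4 to complex II. Complex III has 3, complex IV has 11 with 3 more of the NDUFA4 family, and complex V has 17. A further 8 are complex I assembly factors (NDUFAF1 to NDUFAF8), and ATP5S and ATP5SL carry an ATP synthase name without being subunits of the enzyme. No row carried the symbol CYC1. A filter on low values (at least 0.5 FPKM in at least 4 wounds) was passed by 90 members, all 13 mitochondrial and 77 of the 79 nuclear ones. COX8H and a pseudogene that shares the symbol NDUFA4 did not pass it.

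The wounds were full-thickness punch wounds on the back of female Yucatan minipigs, excised on day 10 and stored in an RNA stabilising solution. The diabetic minipig had received streptozotocin, which destroys insulin-producing beta cells, by intravenous infusion and then supplemental insulin until the week before wounding. The wounds of the non-diabetic minipig were made in the same way. The 7 diabetic wounds, D1 to D7, came from 1 minipig and the 4 non-diabetic wounds, N1 to N4, from 1 other, so diabetes and the animal cannot be told apart and every spread below is one between wounds of the same animal. Library names open with L in D1, D2, D3, N1 and N2 and with R in the other 6 wounds, and the labels do not say what the letter means.

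Oxidative phosphorylation is the last stage of respiration. Complex I (NADH dehydrogenase) and complex II (succinate dehydrogenase) pass electrons to ubiquinone, complex III passes them on to cytochrome c, and complex IV hands them to oxygen. Complexes I, III and IV pump protons, and complex V, the ATP synthase, uses the proton gradient to make ATP. Complex II is wholly nuclear encoded, while the other complexes are built from products of both genomes. In mitochondria the polycistronic transcripts of each strand are cut into messages, not all of them for a single gene. Most of these messages carry short poly(A) tails. Nuclear subunit genes are each transcribed from a promoter of their own.

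Between 28314785 and 40168372 reads per wound fell on genes, and D6 and D7 were the shallowest libraries. D4 and N1 stood apart from the other 9 wounds on the first principal component, which held 44.5% of the variance. The summed level of 10 keratinocyte markers was 49.6 FPKM in D4 and 300 FPKM in N1, against 1696 to 6680 FPKM in the others. That of 8 neutrophil markers was 65.8 and 328 FPKM, against 3827 to 12641 FPKM. The 14 skeletal muscle markers summed to 2206 FPKM in D3 and to 2.74 to 7.02 FPKM in the other 10 wounds. In the same samples 7 cell cycle markers summed to 47.2 to 62.2 FPKM in the 3 L-named diabetic wounds and to 12.6 to 37.0 FPKM in the others. In such bulk tissue, fewer cells of a type and less RNA per cell cannot be told apart.

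The mean level of the mitochondrial messages was far above that of the nuclear members in every wound, though ATP8 lay within the nuclear range, and 2 diabetic wounds had low mitochondrial levels. FPKM counts fragments relative to gene length and a scale of the library. Levels of genes within a wound were set side by side on that scale. This is less sure for genes that share bases, such as ATP8, as described below. The 13 mitochondrial genes took 7.19% (D7) to 12.7% (D1) of all FPKM, and the 79 nuclear members 0.775% (D4) to 1.15% (D2). In recovered reads the shares were 2.65% to 5.25% and 0.281% to 0.515%. On the log2(FPKM + 0.5) scale the mean over the 13 mitochondrial genes was 11.23 in D1, 11.02 in D2, 11.096 in D3, 11.08 in D4 and 11.17 in D5, but 10.48 in both D6 and D7. In the non-diabetic wounds it was 10.83, 10.88, 10.98 and 11.09 in N1 to N4. The 2 low diabetic wounds lay below every other wound, and the remaining 5 lay at or above most non-diabetic ones.

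The mean over the 77 nuclear members passing the filter had a narrower range, from 4.83 in N1 and 4.86 in D4 to 5.15 in D1 and 5.17 in D2. D6 and D7 were at 4.92 and 5.00, inside the range of the others. The level of the mitochondrial genes averaged 10.9 ± 0.318 (SD, n = 7) in diabetic and 10.9 ± 0.116 (SD, n = 4) in non-diabetic wounds, and that of the nuclear members 5.03 ± 0.116 and 4.94 ± 0.0833. The difference between the 2 classes was 5.57 in D6 and 5.48 in D7 and 5.85 to 6.22 in the other 9 wounds, the highest being D4. The plot of mean levels by wound shows both classes on scales of equal span.

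**Figure D1:**
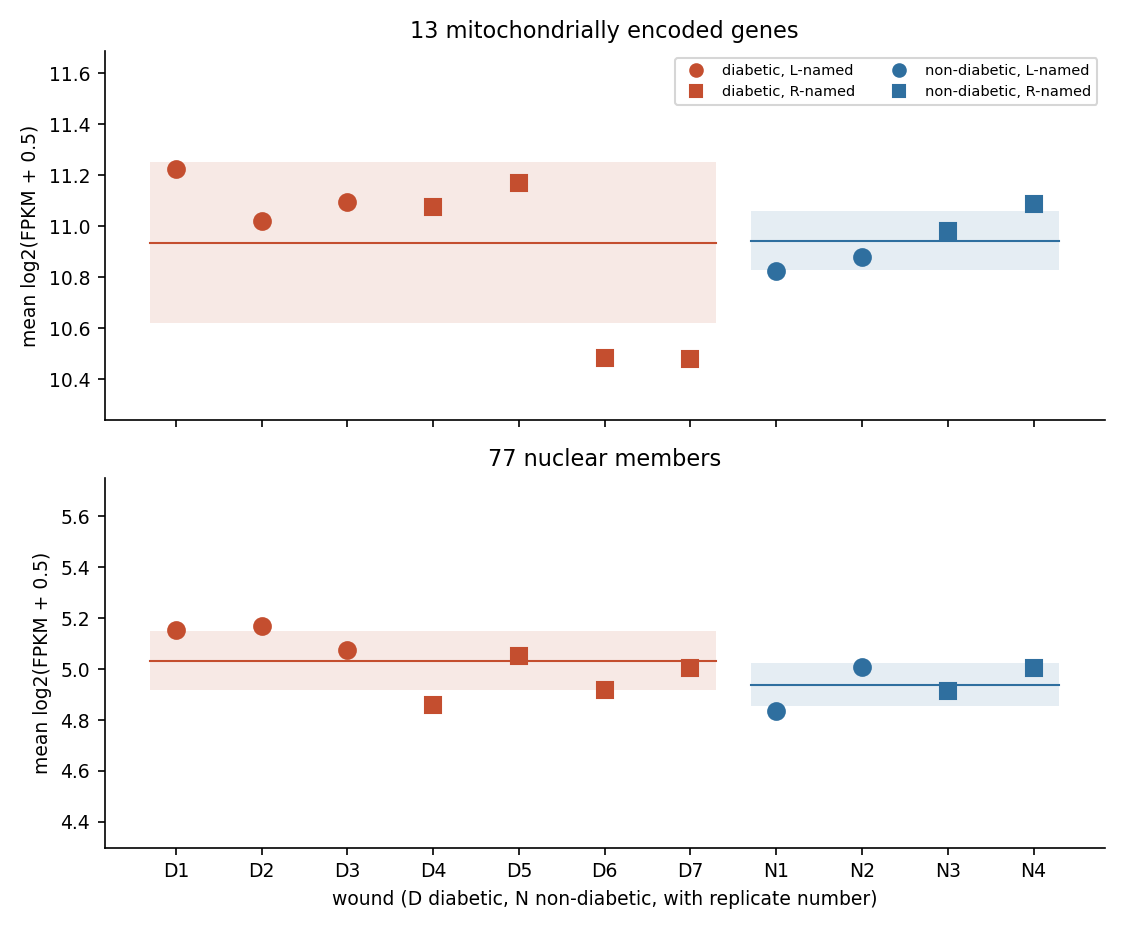
Mean log2(FPKM + 0.5) of the 13 mitochondrially encoded genes (top) and the 77 nuclear members tested (bottom) in each of the 11 wounds, with circles for L-named and squares for R-named wounds. Lines and bands give the mean and SD of the 7 diabetic and 4 non-diabetic wounds, and D6 and D7 lie at 10.48 for the mitochondrial genes while the nuclear members stay between 4.83 and 5.17.

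The low values of D6 and D7 were shared by the whole mitochondrial set. D6 and D7 were the lowest 2 of all 11 wounds for 13 of the 13 mitochondrial genes and for 3 of the 77 nuclear members (ATP5G2, NDUFA12 and NDUFB4), and 4.97% of all genes tested had this pattern. It was found in the values and carries no test. COX3, the most abundant mitochondrial message and a core subunit of complex IV, had 5704 FPKM in D6 and 5804 FPKM in D7. The other diabetic wounds had 7707 to 8841 FPKM and the non-diabetic ones 6429, 6293, 6852 and 7105 FPKM. ATP6, the proton channel subunit of complex V, had 4791 and 4781 FPKM there, against 7088 to 8066 FPKM and 6155 to 7251 FPKM. CYTB, the mitochondrial subunit of complex III, had 2477 and 2373 FPKM against 2848 to 3604 FPKM in the other 9 wounds. These 2 wounds were thus below every other wound in the mitochondrial genes of complexes III, IV and V alike.

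The complex I messages behaved in the same way. ND1 had 1740 and 1805 FPKM in D6 and D7 against 2317 to 2959 FPKM in the other 9 wounds, and ND2 had 1477 and 1446 against 1883 to 2639 FPKM. ND4 had 1437 and 1372 against 1762 to 2321 FPKM. ND5 was at 902 and 858 FPKM, with 1313 to 1628 FPKM elsewhere. For ND3 the gap was smaller, 1049 and 1100 FPKM against 1180 FPKM in the next lowest wound, N3. ND6, the message of the opposite strand, had 1178 and 1192 FPKM against 1456 to 2074 FPKM. COX1 and COX2, the catalytic subunits of complex IV, had 5041 and 4639 FPKM in D6 and 5245 and 4716 FPKM in D7. In the other 9 wounds COX1 ranged from 5650 to 7566 and COX2 from 5358 to 7313 FPKM. Relative to each gene's own mean over the wounds, D6 and D7 lay lower by 0.26 to 0.71 on the log2 scale. The mitochondrial ribosomal RNAs, which carry no symbol in the files, did not all share the order: the 16S row had 102 FPKM in D6 and 90.3 in D7 against 93.6 to 132 FPKM elsewhere, and the 12S row 41.5 and 34.6 against 40.5 to 57.5 FPKM. D6 and D7 also had the fewest reads on genes, 28314785 and 28869445, and the part of depth in the low values was not tested.

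**Figure D2:**
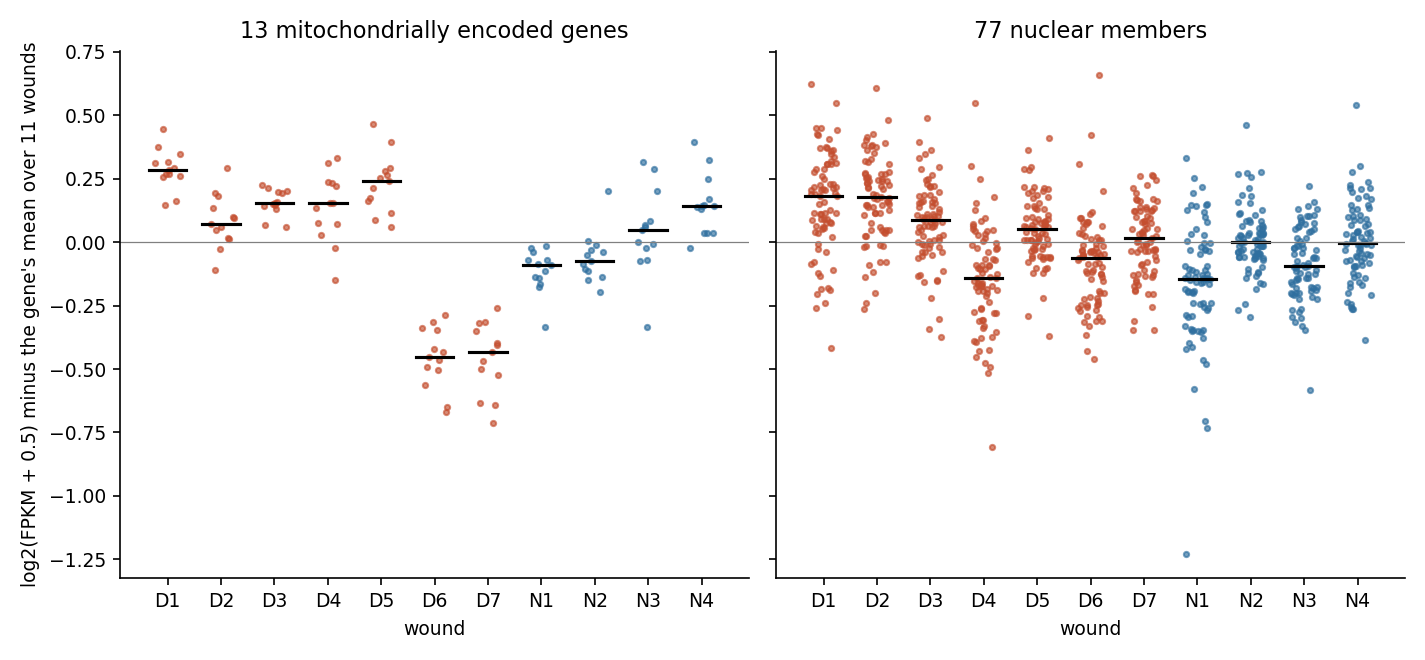
Each point is a gene's log2(FPKM + 0.5) in a wound minus its mean over the 11 wounds, for the 13 mitochondrially encoded genes (left) and the 77 nuclear members tested (right), with a bar at the median, diabetic wounds in red and non-diabetic wounds in blue. All 13 mitochondrial genes are below 0 in D6 and D7, while the nuclear members of those wounds spread around 0.

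Levels within the mitochondrial set spanned a wide range. COX3 took 17.8% of the mitochondrial FPKM, ATP6 16.3%, COX1 15.5% and COX2 14.5%, and the complex I messages took from 1.60% (ND4L) to 5.86% (ND1) each. ATP8, a small complex V subunit, took 0.154%, with 37.5 to 84.2 FPKM per wound against 4781 to 8066 FPKM for ATP6 (FPKM, per length). The highest wound exceeded the lowest by 1.501-fold for COX1 and by 2.25-fold for ATP8, with a median of 1.70-fold over the 13 genes, against 1.54-fold over the nuclear members. Neighbouring genes of the mitochondrial genome share bases, and a read there can be given to either gene or dropped. The authors' setting for such reads is not given in the sources used here. FPKM is counted per gene, and ATP8 and ATP6 were not measured as separate messages. The part of counting in the gap between their values was not tested. The shared stretches are shown because they bear on the levels of ATP8, ND4L and ND6. Each is on the plus strand of Sscrofa11.1, with the shared bases in capitals:
ATP8 and ATP6, MT:9108-9174: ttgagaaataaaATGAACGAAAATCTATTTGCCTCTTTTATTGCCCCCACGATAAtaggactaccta
ND4L and ND4, MT:11347-11377: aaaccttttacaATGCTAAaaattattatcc
ND5 and ND6, MT:14727-14767: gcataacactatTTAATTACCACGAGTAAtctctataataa
ATP8 (bases 8959 to 9162) shares 43 bases with ATP6 (9120 to 9800), which is 21.08% of its length. ND4L shares 7 bases with ND4, in the same direction. ND5 and ND6 share 17 bases and lie on opposite strands. Whether the counting used strand is not stated, so the reads of ND6 and of antisense RNA over it cannot be told apart.

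Whether diabetic wounds differed from non-diabetic ones in these genes was the first comparison. No member was called, and all differences were small. Of the 90 members tested, 0 passed (limma, adjusted p under 0.05 and absolute log2 fold change over 0.5), where 3.00% of all genes tested did. In none of the 90 did the 7 diabetic wounds lie wholly on 1 side of the 4 non-diabetic ones, as they did in 5.65% of all genes. At an unadjusted p under 0.05, 8 members differed, all of them higher in diabetic wounds and all nuclear (8.89% of the members), against 9.01% of all genes for that direction. That count was 0 after rescaling FPKM to a common sum (5.67% of all genes) or quantile normalisation (6.99%). It was 2 without N1 (2.22% of the members against 7.55% of all genes), 3 without D2 or D3 (3.33% against 10.0% and 7.85%) and 4 without N4 (4.44% against 7.55%). It was 5 without D1 or N3 (5.56% against 10.3% and 6.64%) and 11 without D4 (12.2% against 10.1%) or without D6 and D7 (12.2% against 7.24%). Among L-named wounds alone it was 18 (20% against 7.57%), and among R-named wounds alone 2 (2.22% against 17.6%).

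Among nuclear members 60 of 77 were above 0 on the log2 scale (median 0.087), and among mitochondrial genes 8 of 13 (median 0.0065). Over all genes the median was 0.014 and 52.3% were above 0. This count for the nuclear members depended on the scaling. With FPKM rescaled to a common sum, 46 of all 90 members were above 0 in place of 68, the nuclear median was 0.018 against -0.050 for all genes, and the mitochondrial median was -0.067. With quantile normalisation 44 of 90 were above 0. Without D6 and D7, a choice made after their values were seen, the mitochondrial median was 0.17 with 13 of 13 above 0 and the nuclear median 0.12, and again no member was called. Among R-named wounds the mitochondrial median was -0.18 and the nuclear one -0.027, and among L-named wounds 0.22 and 0.20.

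**Figure D3:**
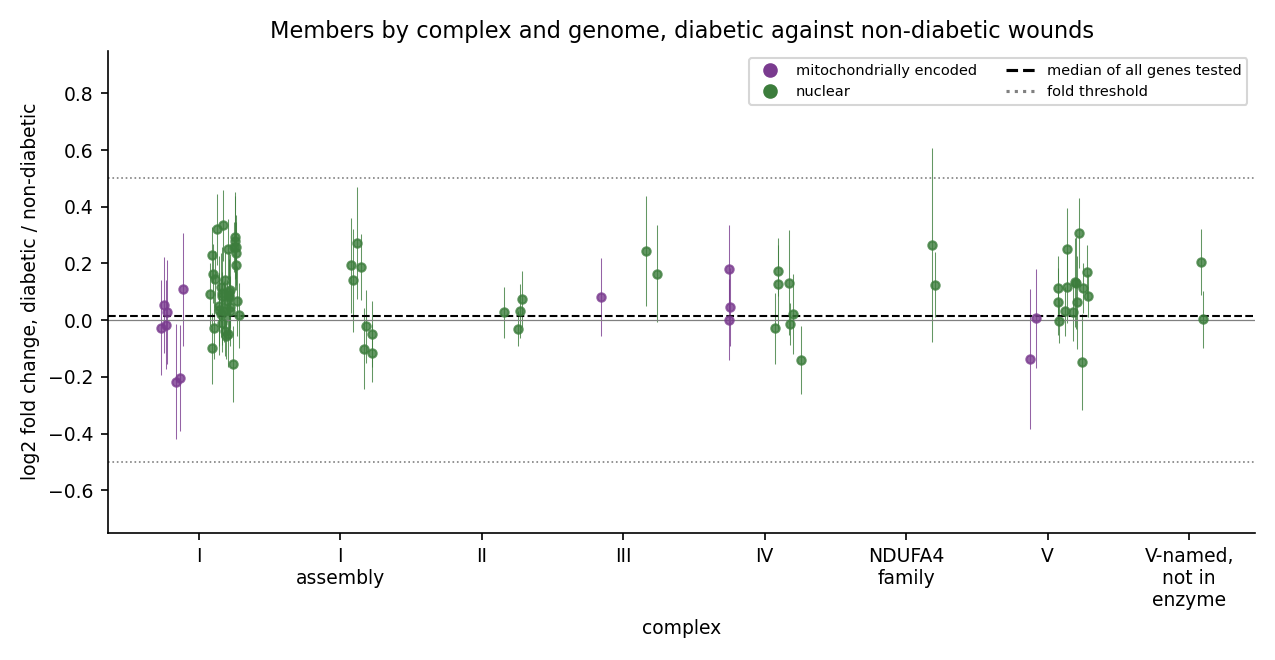
Log2 fold change of diabetic over non-diabetic wounds for each of the 90 members tested, by complex and by encoding genome, with the standard error of the limma fit as bars. The dashed line is the median of all genes tested, 0.014, and no member's point reaches the dotted lines at 0.5 and -0.5.

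The complexes are described side by side, with no test between them. Of the 37 nuclear subunits of complex I, 30 were above 0 (median 0.087 on the log2 scale), and of the 7 mitochondrial ones 3 were (median -0.016). Complex II, which has no mitochondrial subunit, had 3 of 4 above 0 and a median of 0.030. In complex III, UQCR10 and UQCRB were at 0.16 and 0.24 and CYTB at 0.081. In complex IV, 4 of 7 nuclear subunits tested were above 0 (median 0.022), and all 3 mitochondrial ones (median 0.047). In complex V, 13 of 15 nuclear subunits were above 0 (median 0.11), while ATP6 was at 0.0065 and ATP8 at -0.14. The 8 assembly factors of complex I had 4 above 0 and a median of 0.059.

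The smallest p-values among members higher in diabetic wounds belonged to NDUFV2, NDUFB5, NDUFA10, ATP5F1 and NDUFC1. NDUFV2, an iron-sulfur subunit of the NADH-binding module of complex I on chromosome 6 from 98819156 to 98852561, had 35.8 FPKM in the lowest diabetic wound, a median of 41.8 and 46.4 in the highest. Its non-diabetic values were 31.5, 36.9, 34.0 and 35.1 FPKM in N1 to N4. The groups overlapped only through D4, which lay below N2. The means were 41.3 ± 3.90 (SD, n = 7) and 34.4 ± 2.25 FPKM (SD, n = 4), differing by 0.26 on the log2 scale with a standard error of 0.088 (limma, adjusted p = 0.139), and the two-sided exact permutation test over 330 splits gave p = 0.0121 before any adjustment.

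NDUFB5, an accessory subunit in the membrane arm of complex I, had 21.3 to 31.9 FPKM (median 26.6) in diabetic wounds and 18.1, 22.6, 22.5 and 21.0 FPKM in N1 to N4 (log2 fold change 0.33, adjusted p = 0.181, limma). NDUFA10, another accessory subunit, had 24.2 to 39.7 FPKM (median 34.4) against 23.5, 29.1, 26.8 and 24.96 FPKM (0.32, adjusted p = 0.195, limma). ATP5F1, a subunit of the stalk that holds the catalytic head of the ATP synthase, had 46.9 to 74.0 FPKM (median 63.8) against 42.6, 49.5, 51.7 and 53.5 FPKM (0.31, adjusted p = 0.212, limma). NDUFC1 had 29.1 to 41.1 FPKM (median 35.2) against 25.8, 31.1, 29.5 and 29.9 FPKM (0.26, adjusted p = 0.234, limma). In NDUFA10 and ATP5F1 only D4 lay among the non-diabetic wounds. D4 and D6 did so in NDUFB5, and D4 and D7 in NDUFC1.

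In the other direction the smallest p-values belonged to NDUFB2, COX6C, NDUFAF7, ND5 and ND4L, with log2 fold changes of -0.16, -0.14, -0.12, -0.20 and -0.22 and adjusted p-values between 0.591 and 0.625 (limma). NDUFB2, an accessory subunit of complex I, had 50.8 to 74.7 FPKM in diabetic and 56.7 to 79.3 FPKM in non-diabetic wounds. COX6C, a small subunit of complex IV, had 91.9 to 129 FPKM against 104 to 144 FPKM. Both groups overlapped over most of their range. NDUFAF7, a methyltransferase that modifies a complex I subunit, was near 1 FPKM, with 0.949 to 1.46 against 1.18 to 1.45 FPKM.

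The most abundant nuclear member of each complex differed little between the groups. NDUFS5 in complex I had 102 ± 7.00 FPKM in diabetic and 97.1 ± 3.52 in non-diabetic wounds. SDHD, a membrane anchor of complex II, had 69.02 ± 8.37 and 65.1 ± 2.97 FPKM. UQCR10 in complex III had 78.7 ± 16.4 and 69.7 ± 11.4 FPKM, and COX6A1 in complex IV had 190 ± 17.8 and 168 ± 11.3 FPKM. ATP5B, the catalytic beta subunit of complex V and the most abundant nuclear member, had 208 ± 44.8 and 195 ± 19.96 FPKM (SD, n = 7 and n = 4). For these 5 genes the adjusted p was between 0.330 and 0.884 (limma). The lowest members tested were the assembly factors NDUFAF6, with 0.430 to 1.22 FPKM over all wounds, and NDUFAF7.

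Wounds whose names open with L were then set against those with R, with the group as a term. No gene of the whole table was called (0 of all genes, limma), and so no member. At an unadjusted p under 0.05, 0 members and 2.38% of all genes differed. Without N1, 18 members (20%) and 7.55% of all genes did, again with no call. With library weights 20 members (22.2%) and 14.7% of all genes did, also with no call. The direction was nonetheless shared by most members: 13 of 13 mitochondrial and 65 of 77 nuclear ones were higher in L-named wounds (86.7% of the members), against 49.7% of all genes, although ND6 was at -0.0011 after median centring. The medians were 0.13 for the mitochondrial genes, 0.12 for the nuclear members and -0.0016 for all genes. The mitochondrial part rested on D6 and D7, which are R-named. Without them 1 of 13 mitochondrial genes was higher and their median was -0.093, while 66 of 77 nuclear members were higher with a median of 0.074. Without D4 and N1 the medians were 0.22 and 0.13.

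The smallest p-values for higher levels in L-named wounds belonged to ATP5G1, NDUFA11, ATP5O, COX6A1 and NDUFA6, with log2 differences of 0.29, 0.22, 0.15, 0.15 and 0.19, each with an adjusted p of 0.961 (limma). For lower levels they belonged to NDUFAF3, NDUFV3, ATP5E, ATP5S and SDHB, with differences of -0.21, -0.098, -0.049, -0.041 and -0.021 and adjusted p-values from 0.961 to 0.972. ATP5G1, which encodes a subunit of the membrane ring of the ATP synthase, had 76.2, 68.2 and 69.7 FPKM in D1 to D3, 43.1, 54.0, 46.0 and 60.5 in D4 to D7, 47.1 and 57.5 in N1 and N2 and 56.1 and 52.9 in N3 and N4. Its L-named wounds were higher in the diabetic minipig, while N1 and N2 lay on either side of N3 and N4.

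Within the diabetic minipig the letters differed more, and the nuclear members were mostly higher in the 3 L-named wounds. No member was called (smallest adjusted p 0.0503, limma), where 3.77% of all genes were. At an unadjusted p under 0.05, 31 of 90 members were higher in L-named wounds (34.4%), against 12.9% of all genes, and 2 were lower, NDUFAF3 and ATP5E. Every L-named diabetic wound lay above every R-named one in 32 of 90 members (35.6%), against 10.2% of all genes. Of the 90, 74 were higher in L-named wounds, against 51.0% of all genes, with a median log2 difference of 0.19 for the nuclear members, 0.31 for the mitochondrial genes and 0.0091 for all genes. These p-values take the spread from all 11 wounds. With the diabetic wounds alone in the fit, 26 members (28.9%) were higher in L-named wounds at that p, against 10.9% of all genes. In either direction 28 members (31.1%) and 25.1% of all genes differed in that fit. It called 7 genes of the whole table, no member among them.

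These counts changed with the wounds included. Without D4 and N1 no gene was called, 20 members (22.2%) were higher at an unadjusted p under 0.05 against 10.7% of all genes, and the nuclear median was 0.16. Without D6 and D7, 11 members (12.2%) were higher at that p against 8.33% of all genes, the mitochondrial median was -0.021 with 6 of 13 above 0, and the nuclear median was 0.21 with 67 of 77 above 0. Without D3, the wound with muscle markers, 4 of 90 members (4.44%) were called, ATP5B, ATP5G1, COX7A2 and NDUFA5, a smaller share than the 17.2% of all genes called in that fit. With FPKM rescaled to a common sum 4 members (4.44%) were called as well, with COX5B in place of COX7A2, against 3.32% of all genes, while the median of all genes moved from 0.0091 to 0.12. Rescaled to the sum of genes off the mitochondrial genome, 12 members (13.3%) and 4.66% of all genes were called, and that median was 0.16. Library weights gave 3 members (3.33% against 15.6%) and robust eBayes 2 (2.22% against 5.27%). A filter of 1 FPKM in every wound gave 2 (2.27% against 8.38%), and a pseudocount of 1 gave 1 (1.11% against 3.9%). When other single wounds were left out no member was called, and the members higher at an unadjusted p under 0.05 numbered from 14 (15.6%, against 7.67% of all genes, without D2) to 35 (38.9% against 12.5%, without D5), with 15 without D1 and 17 without D6. The same L-named diabetic wounds were higher in 7 of 7 cell cycle markers, all called, and lower in 8 of 9 fibroblast markers, 1 of them called. Without a call, they were lower in 9 of 10 macrophage markers (median -0.50) and 8 of 9 adipocyte markers (median -0.77) and higher in 8 of 10 keratinocyte markers (median 1.62). The part of these markers in the result was not tested.

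ATP5B had the smallest p of the members here. It had 258, 265 and 228 FPKM in D1 to D3 and 144, 192, 171 and 195 FPKM in D4 to D7, and 168, 200, 215 and 199 FPKM in N1 to N4. The 3 L-named diabetic wounds were the highest of all 11. Within diabetic wounds the letters differed by 0.52 on the log2 scale (limma, SE 0.13, adjusted p = 0.0503). NDUFA5, a subunit of the matrix arm of complex I, had 7.75, 8.36 and 7.39 FPKM in D1 to D3, 4.97, 6.18, 5.53 and 4.72 in D4 to D7 and 4.48, 6.07, 6.07 and 7.27 FPKM in N1 to N4. Its difference within diabetic wounds was 0.52 (limma, SE 0.13, adjusted p = 0.0530), and N4 lay close to the L-named diabetic wounds. ATP5A1, the alpha subunit beside ATP5B, had 249, 249 and 215 FPKM against 134, 189, 176 and 202 FPKM (0.45, adjusted p = 0.0871, limma). COX5B, a subunit of complex IV, had 152, 168 and 147 FPKM against 105, 125, 110 and 131 FPKM (0.41, adjusted p = 0.0713, limma). In both genes the letters did not overlap. The 2 exceptions ran the other way: NDUFAF3, an assembly factor, had 20.2, 21.1 and 21.9 FPKM against 30.1, 26.9, 26.5 and 24.2 FPKM, and ATP5E, a subunit of the central stalk, 24.4, 22.6 and 22.7 against 25.9, 26.6, 27.0 and 27.2 FPKM.

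In the non-diabetic minipig, with 2 wounds of each letter, no gene was called (0 of all genes, limma). At an unadjusted p under 0.05, 1286 of the 13956 genes tested differed, 1 of them a member (NDUFAF8). NDUFAF8 was higher in L-named wounds, which makes 1.11% of the members against 4.85% of all genes for that direction. The medians there were -0.16 for the mitochondrial genes, with 12 of 13 lower in L-named wounds, and -0.026 for the nuclear members, with 31 of 77 higher. The test of the difference between the letter effects of the 2 minipigs called 0 members, against 6.46% of all genes, with the smallest adjusted p at NDUFA5 (interaction 0.84 on the log2 scale, standard error 0.22, adjusted p = 0.0516, limma). At an unadjusted p under 0.05, 23 of 90 members had an interaction above 0 (25.6%), against 14.2% of all genes. Without D4 and N1 the numbers were 4 of 90 and 8.81%, and 1 gene was called, and without N1 alone 3 members (3.33%) and 9.34% of all genes were above 0 at that p. D4 is R-named and N1 is L-named, so both wounds weigh on this contrast in the same direction.

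**Figure D4:**
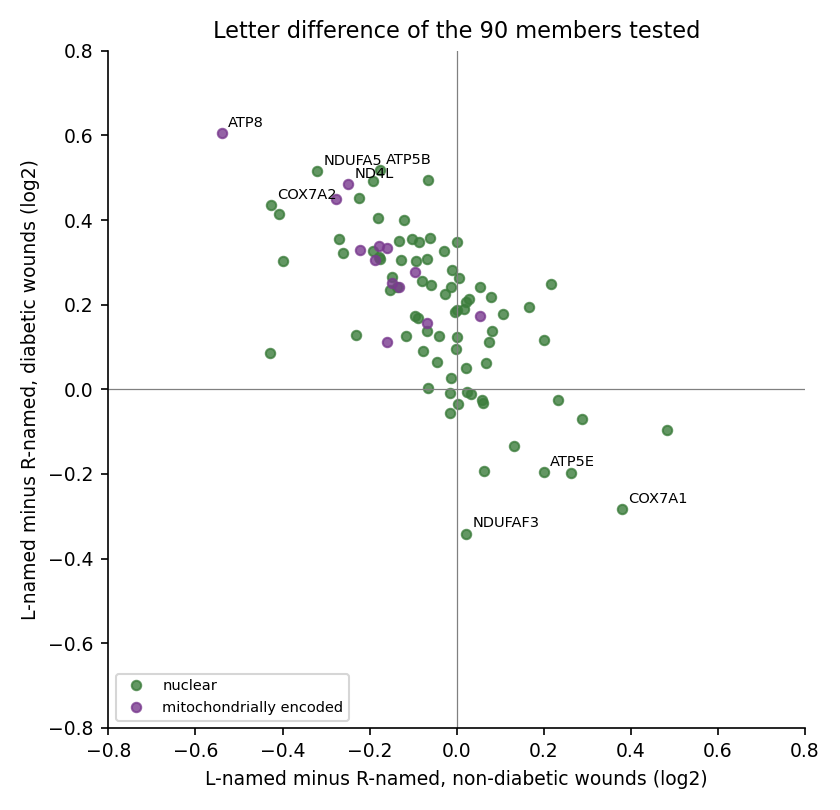
Log2 difference between L-named and R-named wounds in the non-diabetic minipig (x axis, 2 against 2 wounds) and in the diabetic minipig (y axis, 3 against 4 wounds) for the 90 members tested. Most points lie above 0 on the y axis, where the mitochondrial genes run from 0.11 to 0.61, and 12 of 13 mitochondrial genes lie below 0 on the x axis.

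Several subunits have isoforms that are restricted to a tissue or condition, and these were read one by one. COX8H, the heart and muscle form of a complex IV subunit, on chromosome 2 from 69199 to 70730, had 96 reads (7.31 FPKM) in D3, 4 reads in D5, 3 reads in N3 and 0 in the other 8 wounds. D3 is the wound with skeletal muscle markers. The other muscle forms did not have their highest value there. COX7A1 had 15.3 FPKM in D3 and 26.4 FPKM in D4, its highest wound, and LOC100626250, described as the muscle form COX6A2 and outside the rule by its symbol, had 7.70 FPKM in D3 and 7.89 FPKM in D4. The common form COX7A2 had 65.2 to 126 FPKM in diabetic wounds and 70.5, 75.9, 92.8 and 105 FPKM in N1 to N4. NDUFA4L2, a hypoxia-responsive relative of the complex IV subunit NDUFA4, had 5.29 FPKM in D4 and 3.82 FPKM in N1, the 2 wounds with few keratinocyte and neutrophil markers, and 7.08 to 15.5 FPKM in the other 9. A list of 10 hypoxia genes summed to 140 FPKM in D4 and 195 FPKM in N1, and to 264 to 417 FPKM in the other 9. The part of hypoxia or of cell content in the NDUFA4L2 values was not tested. NDUFA4 itself had 50.8 to 71.2 FPKM, and its pseudogene on chromosome 13 had 0 reads in all 11 wounds.

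**Figure D5:**
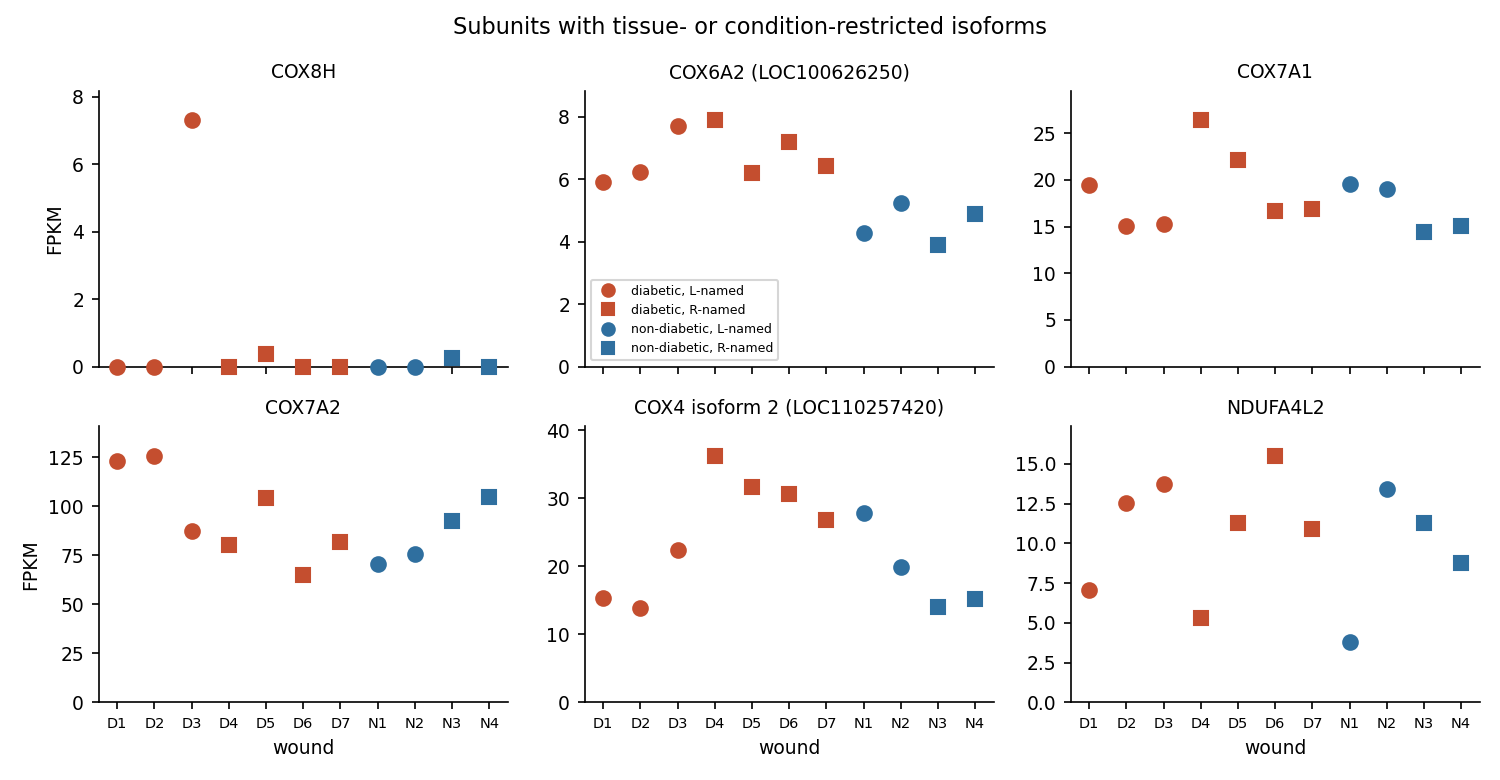
FPKM by wound of 6 isoform genes of complex IV, with circles for L-named and squares for R-named wounds, diabetic wounds in red and non-diabetic wounds in blue, each axis starting at 0. COX8H is above 1 FPKM in D3 alone, and NDUFA4L2 is lowest in N1 and D4.

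Subunits that the symbol rule missed were found by their description, under LOC identifiers or older symbols, after the values had been seen. Of these 17, 1 was called in the diabetic comparison, where 3.00% of all genes were. This was LOC100626250 (COX6A2), with 6.795 FPKM as the mean of the diabetic wounds and 4.57 FPKM as that of the non-diabetic ones (limma, adjusted p = 0.0248, with a difference of 0.53 ± 0.11 SE on the log2 scale). Its 7 diabetic wounds ran from 5.90 to 7.89 FPKM and all lay above N1 to N4, at 4.28, 5.23, 3.88 and 4.90 FPKM. LOC100624067, described as COX4 isoform 1, the most abundant of the 17, was at 171 to 205 FPKM in diabetic wounds and 161, 167, 157 and 166 FPKM in N1 to N4 (0.24, adjusted p = 0.104, limma). LOC110257420, described as COX4 isoform 2, the form associated with low oxygen, had 15.4, 13.9 and 22.4 FPKM in D1 to D3 and 36.3, 31.7, 30.7 and 26.8 FPKM in D4 to D7. Of the 17, 13 were higher in L-named than R-named diabetic wounds, against 51.0% of all genes, with a median of 0.36. At an unadjusted p under 0.05, 9 differed, against 28.9% of all genes in either direction. None was called higher, where 3.77% of all genes were called in either direction. LOC110257420 was the 1 called lower (-0.87, adjusted p = 0.0453, limma), and N1 to N4 had 27.9, 19.95, 13.98 and 15.2 FPKM. LOC100525869, described as cytochrome c1 (the gene CYC1), had 46.5 to 79.4 FPKM in diabetic and 49.5 to 62.5 FPKM in non-diabetic wounds.

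The start sites of the nuclear members were searched for binding motifs of factors known for respiratory genes. For the 78 protein-coding members, leaving out the NDUFA4 pseudogene, the 300 bases from 250 before to 50 after the RefSeq gene start (Sscrofa11.1) were read. The NRF1 core CGCATGCG was present in 8.97% of them, against 2.71% of the 13027 protein-coding genes tested and 1.99% of all 20643 protein-coding starts. The ETS motif CCGGAAG, on either strand, was in 23.1% against 14.8% and 10.6%, and the YY1 motif AAGATGGC in 11.5% against 3.25% and 2.41%. Any of the 3 was in 29 of 78 (37.2%) against 19.2% of the tested genes, and none of these motifs contains another. The YY1 matches lay after the gene start in NDUFB8, ATP5O, NDUFA6, NDUFC1 and NDUFAF8. They lay before it in ATP5H, NDUFA9, NDUFB3 and SDHD. The YY1 motif holds the letters ATG, and matches at start codons were not told apart. Median CpG counts per window were 22 in the members and 21 in the genes tested. Stretches from members described above are shown, with motif matches in capitals and each read along the gene:
ATP5O, NRF1, chr13:197519525-197519594, minus strand: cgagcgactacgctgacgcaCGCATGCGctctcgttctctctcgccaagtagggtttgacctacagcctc
COX5B, ETS, chr3:56632104-56632173, minus strand: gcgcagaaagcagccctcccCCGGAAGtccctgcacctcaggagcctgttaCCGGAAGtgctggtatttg
ATP5A1, ETS, chr1:95750851-95750920, minus strand: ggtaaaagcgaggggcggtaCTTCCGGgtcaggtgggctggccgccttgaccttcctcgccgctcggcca
NDUFA6, YY1, chr5:6562054-6562123, plus strand: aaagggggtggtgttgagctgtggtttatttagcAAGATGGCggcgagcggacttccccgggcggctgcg
These are matches of letters and not measured binding.

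Most genes of the other respiration lists were not called either, though some differed more than any member. Over all genes tested, 3.00% were called in the diabetic comparison. Of the 74 mitochondrial ribosomal protein genes tested, MRPL47 was called in the diabetic comparison (4.69 against 2.61 FPKM as means, log2 fold change 0.73, adjusted p = 0.0131, limma), and the median was 0.090, with 57 above 0. Of 9 carriers tested, UCP2, an inner membrane carrier, was called higher (19.8 against 9.09 FPKM, 1.05, adjusted p = 0.0149, limma). UCP2 is abundant in macrophages, and of 10 macrophage markers 3 were called higher in the same comparison, their summed level being 752 to 1709 FPKM in diabetic and 483 to 900 FPKM in non-diabetic wounds. The part of these cells in the value was not tested. SLC25A6, an ADP/ATP carrier and the most abundant of the carriers, had 531 ± 54.7 and 434 ± 72.8 FPKM (0.30, adjusted p = 0.221, limma).

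Of the 13 mitochondrial transcription and replication genes tested, MGME1, a mitochondrial exonuclease, was called higher (4.81 against 3.14 FPKM, 0.54, adjusted p = 0.0411, limma). Of 12 genes of pyruvate entry PDP2, a phosphatase that activates pyruvate dehydrogenase, was called lower (1.57 against 2.84 FPKM, -0.69, adjusted p = 0.0290, limma). None of the 14 tricarboxylic acid cycle genes, 16 electron carrier genes, 15 genes of mitochondrial RNA stability, 9 translation factors or 7 regulators of biogenesis tested was called, nor any assembly factor outside the rule, of which 7 serve complex I, 5 complexes II and III, 7 complex IV and 4 complex V. In these lists the most abundant genes, IDH2, CYCS, SLIRP, TUFM and MYC, had log2 fold changes of -0.0092, 0.15, 0.072, 0.32 and 0.49. Larger differences that missed the threshold were those of PDK4, a kinase that inhibits pyruvate dehydrogenase (8.78 against 2.62 FPKM, 1.59, adjusted p = 0.0925, limma), and of COQ8A, which serves ubiquinone synthesis (13.1 against 5.42 FPKM, 1.09, adjusted p = 0.0822, limma), both named after their values were seen. Of 15 glycolysis genes ALDOC was called lower (5.98 against 24.4 FPKM), and of 10 hypoxia genes P4HA1, a collagen prolyl hydroxylase (33.0 against 51.3 FPKM). Within diabetic wounds, 1 gene each of the tricarboxylic acid cycle (IDH3A, 0.65), RNA stability (FASTKD1, 0.60), ribosomal protein (MRPS12, 0.59) and glycolysis (PGK1, 0.52) lists was called higher in L-named wounds (limma). Over all genes tested, 3.77% were called there in either direction.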

How the data were processed

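Libraries of poly(A)-selected RNA, made with a strand-marking dUTP kit, were measured for 11 wounds. Per the labels, the tools of the authors were fastp for trimming, HISAT2 2.2.1 for mapping (build Sscrofa11.1), StringTie 2.2.3 and, for counting, featureCounts 2.0.6. The authors deposited FPKM values for 30376 genes, whose formula and counting options are not given in the sources used here. Whole reads were recovered from FPKM and length for 100% of values, within 0.05 reads. The library divisor found in this way was 0.854 (N1) to 1.18 (D2) times the summed reads on genes. It followed size factors of the recovered reads, taken as the median ratio over genes, more closely. Its ratio to them lay between 0.995 (D5) and 1.005 (D1) of the mean ratio. Since the values were FPKM, log2(FPKM + 0.5) was fitted with limma (lmFit, eBayes with trend, Benjamini-Hochberg over 13956 genes with at least 0.5 FPKM in at least 4 libraries). A call needed a log2 fold change beyond 0.5 in size at an adjusted p below 0.05. The letter was fitted with the group as a term, and as 4 cells for the interaction. Single genes were also compared by two-sided exact permutation (330 splits, smallest p 0.00303). The fits were also run on simulated counts, drawn with the same relative spread for all genes and without outlying wounds. Those runs do not show how the fits behave with wounds such as D4 and N1.

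The members and lists were chosen with earlier results of these data known. Genes named are the 5 members with the smallest p in each direction of the diabetic and letter comparisons, all 13 mitochondrial genes, the most abundant member per complex, members with a restricted isoform, members under the filter, called members, and called or most abundant genes of the other lists. NDUFA5, ATP5A1, COX5B, ATP5G2, NDUFA12, NDUFB4, NDUFAF6, NDUFAF8 and the genes called within diabetic wounds were named after their values were seen. The replicate numbers of the labels were not taken to pair wounds: deviations of same-numbered wounds correlated at -0.267, 0.215, 0.0678 and -0.484. RefSeq identifiers, starts and sequences are from Sscrofa11.1, and all 92 members matched in identifier and start. Fits were run with limma 3.58.1 in R 4.3.3. Tables and plots were made in Python 3.11.15 using pandas 2.3.3, matplotlib 3.10.9 and numpy 2.4.6.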

Additional observations from a re-analysis of the deposited data

Results flagged for a closer look

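Of 132 sets of wounds examined (66 values in each group), 4 held a wound far from the others of its group, where chance alone flags about 1 in 20. COX8H was at 7.31 FPKM in D3 and at 0 to 0.367 FPKM in the other diabetic wounds, and at 0.258 FPKM in N3 and 0 in the other non-diabetic wounds, which for N3 is 3 reads. CYTB was at 3104 FPKM in N4 against 2848 to 2879 FPKM in N1 to N3, and ND1 at 2618 FPKM against 2317 to 2341 FPKM. No explanation was tested for these values.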

How the results depend on the processing

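No member was called in the diabetic comparison or in the letter comparison under any of 28 alternatives each. The interaction, with 0 members called, gave 16 members after rescaling FPKM to a common sum (17.8%, against 7.75% of all genes) and 29 after rescaling to the sum of genes off the mitochondrial genome (32.2% against 13%). It gave 10 with library weights (with 24.2% of all genes called), 1 with robust eBayes (1.11% against 7.67%), 1 with a filter of 1 FPKM in every wound (1.14% against 14.8%), and 0 to 6 when single wounds were left out (6 without D3, 6.67% against 23.6%). Under these 2 rescalings the median interaction of all genes also moved, from 0.010 to 0.26 and 0.33, against 0.55 and 0.63 for the members. The nuclear median of the diabetic comparison moved from 0.087 to -0.027 in R-named and 0.20 in L-named wounds, and stayed between 0.051 and 0.11 when single wounds were left out. The letter medians in non-diabetic wounds alone were -0.16 (mitochondrial) and -0.026 (nuclear). The cause of these shifts was not tested. The mitochondrial median of the diabetic comparison, near 0, was below 0 in 13 of 28 alternatives. With the replicate number as a replicate block, 0 members were called in all 3 comparisons and 16 genes of the whole table in the diabetic one, in place of 419 (822 with library weights, and 209 to 482 when single wounds were left out, the lowest without N1). Leaving out D6 and D7 together was added after seeing the data. The block left 1 member at an unadjusted p under 0.05 within diabetic wounds, in place of 33, and 4.87% of all genes in place of 28.9%. Of 53 single-gene values of the diabetic and letter comparisons, 41 changed sign in at least 1 alternative, among them ND4L (-0.22, up to 0.19) and NDUFA4L2 (0.27, down to -0.087) in the diabetic comparison and ATP5G1 (0.29, down to -0.065), NDUFAF3 (-0.21, up to 0.16) and ATP8 (0.18, down to -0.54) in the letter comparison, and none was called in any. With 1 animal in each group, p-values measure the spread between wounds only.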
